A study of Homo sapiens with 60 samples.

Results

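NQO1 and the thioredoxin system were followed in HT29 cells as 9 genes: NQO1, NQO2, TXN, TXNRD1, TXNRD2, PRDX1, PRDX2, SRXN1 and OSGIN1. They were taken by symbol from the 60675 gene entries of an RNA-seq count table, and each symbol matched 1 Ensembl identifier. All 9 had counts in each of the 60 libraries, and all 9 passed the filter on low counts that left 17089 genes for testing.

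HT29 is an established human line grown from a colorectal adenocarcinoma, and it is the only cell model of the series. The cells were exposed for 24 h to ethanol extracts of 6 medicinal plants or 2 herbal formulas, each at a high, a medium and a low dose. Astragali Radix, Cnidii Rhizoma, Cinnamomi Cortex, Paeoniae Radix and Rehmanniae Radix Preparata were given at 500, 100 and 20 µg/mL with 3 libraries a dose. Angelicae Gigantis Radix was given at 320, 64 and 12.8 µg/mL, with 2 libraries a dose analysed here. The formulas Sagunja-tang and Samul-tang were given at 500, 100 and 20 µg/mL with 1 library a dose, so their values carry no test. The vehicle group held 3 libraries of cells given 0.1% DMSO by their labels, while the text on the series gives a higher share. Whether replicate libraries stand for separate cultures is not stated, and the p-values below reflect only how far libraries of a group differ, which may be technical.

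The thioredoxin system passes electrons from NADPH through the selenoprotein thioredoxin reductase to thioredoxin, which keeps protein thiols reduced and supplies the peroxiredoxins that remove peroxides. NQO1 reduces quinones without forming the semiquinone. NQO1, TXN, TXNRD1, SRXN1, PRDX1 and OSGIN1 are known targets of the transcription factor NRF2, which KEAP1 holds at low levels until electrophiles or oxidants modify KEAP1. NRF2 pairs with a small MAF protein at the antioxidant response element, a short motif with the core TGACNNNGC.

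Promoter sequences are shown for TXNRD1 and OSGIN1, which are among the genes that moved most below. They come from RefSeq on GRCh38.p14, and 8 of the 9 genes matched the table, with 11 start sites. Each window holds 250 bases before the first transcribed base, which is position 0, and 50 bases from it on. Capitals mark TGACNNNGC on either strand in TXNRD1 and TGACTCA in OSGIN1. The windows lie at chr12:104215629-104215788 (plus strand, from -150 to 9) and at chr16:83953090-83953221 (plus strand, from -150 to -19), and the short stretch at a second TXNRD1 start lies at chr12:104286924-104286944 (plus strand).
TXNRD1, first start: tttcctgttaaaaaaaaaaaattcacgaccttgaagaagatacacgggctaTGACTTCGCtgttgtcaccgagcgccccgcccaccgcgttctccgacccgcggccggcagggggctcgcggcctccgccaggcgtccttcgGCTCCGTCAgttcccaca
TXNRD1, second start: atttctGCTTTGTCAttctga
OSGIN1: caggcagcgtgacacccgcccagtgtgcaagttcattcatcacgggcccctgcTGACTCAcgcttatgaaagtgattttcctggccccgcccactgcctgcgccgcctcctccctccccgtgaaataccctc

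TGACNNNGC was present in 2 of the 11 windows, both of TXNRD1, and in 13.3% of all 35116 promoter windows in the table. TGACTCA or its complement TGAGTCA, a motif of the AP-1 type that was looked for only after the OSGIN1 sequence had been seen, was present in 1 of the 11 windows and in 4.95% of all windows. Of the 1738 windows with that motif, 198 also held a TGACNNNGC that overlapped it. A match is a description of the letters and not a binding site. PRDX1 had no window, and sequence outside the windows was not searched, so no match here does not mean that a gene lacks the motif.

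The libraries held 17798492 to 31134188 counts, and 21247 to 24191 genes were detected in each. The 3 Astragali Radix libraries at 500 µg/mL lay apart from each other. Their chi-square per gene between libraries of the group was 99.8 to 250.4, against at most 15.7 in any other group. Their share of mitochondrial counts was 1.99%, 6.72% and 7.82% in libraries 1, 2 and 3, against 9.41% to 12.3% in vehicle and 6.91% to 10.0% in the other groups. The part of this in the results below was not tested. Of 10 colon epithelium markers, 9 had a mean of at least 1 CPM (counts scaled to a fixed library total), with CDX1 at 0.768. Their summed level was 9855 to 19710 CPM, most of it KRT8 (mean 6521) and KRT18 (3956). The means of CDX2 (4.17) and CDH17 (4.37) were far lower. The 4 leukocyte markers summed to 4.05 to 54.6 CPM, nearly all of it CD68 (up to 54.5), while PTPRC reached at most 0.112 CPM and MS4A1 was at 0. Of 3 hepatocyte markers, SERPINA1 was at 278 to 471 CPM, while ALB reached at most 0.0488 and APOA1 0.115. The fibroblast, endothelium and lung epithelium markers summed to at most 7.42, 3.09 and 0.238 CPM.

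Levels below are CPM of the library total for single libraries. Changes are log2 values fitted with edgeR's quasi-likelihood test after TMM scaling, over 54 replicated libraries in 19 groups, with Benjamini-Hochberg adjustment over all genes tested. A gene is said to rise or fall at an adjusted p under 0.05. TMM gave the Astragali Radix high-dose libraries factors of 0.769 to 0.838. Using library totals instead moved the median of all genes in Astragali Radix high against low by -0.36 on the log2 scale. The shift was -0.06 in Astragali Radix medium against low and at most 0.05 either way in the comparisons of the other extracts. Fold changes with Astragali Radix are therefore larger than the ratio of the CPM values.

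High dose against low dose is the main comparison, and it asks what more of each extract did to these genes. Cnidii Rhizoma raised 7 of the 9 genes, where 10.2% of all genes tested passed in either direction. Astragali Radix raised all 9, where 70.2% of all genes passed, so that share is high for any set of genes. Paeoniae Radix raised 2 (1.77% of all genes), Rehmanniae Radix Preparata 1 (0.117%) and Angelicae Gigantis Radix 1 (0.0644%). Cinnamomi Cortex raised 0 (0.281% of all genes), with 3 at an unadjusted p under 0.05 in edgeR's test and 1 gene passing in DESeq2. None of the 9 genes fell in any extract in this fit. The median log2 change over the 9 genes was 0.67 with Cnidii Rhizoma and 1.31 with Astragali Radix, against a median of 0 over all genes in both, and 0.06 to 0.19 with the other 4 extracts.

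**Figure D1:**
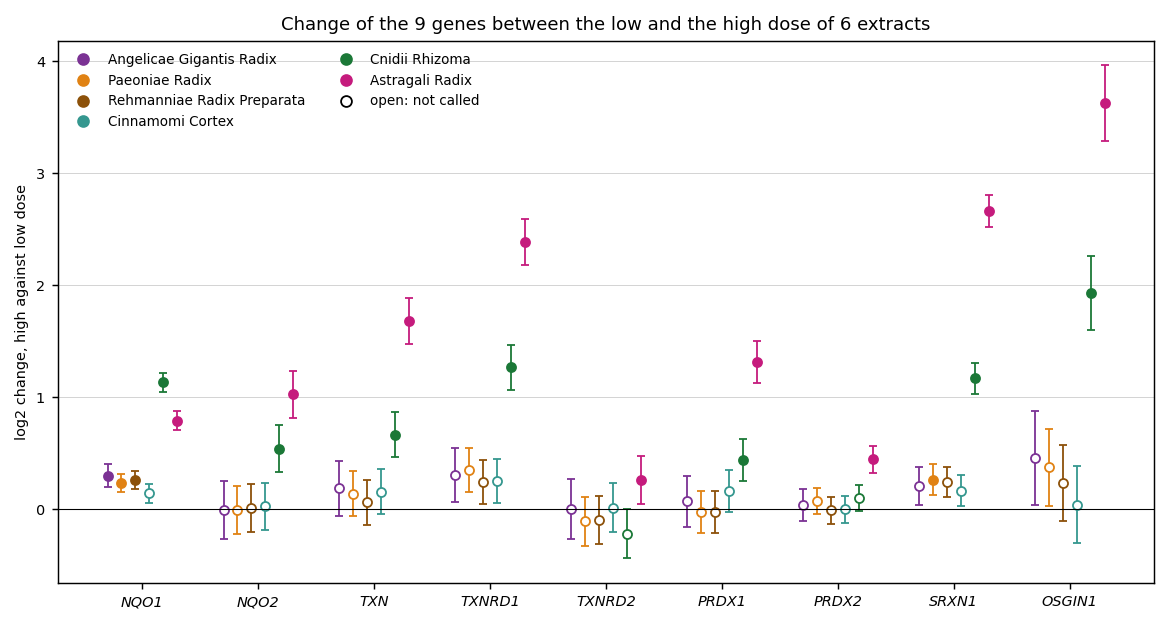
Log2 change between high and low dose (TMM-scaled fit) for the 9 genes in the 6 plant extracts, with bars for the 95% interval. Filled points have an adjusted p under 0.05 and open points do not. The Cnidii Rhizoma and Astragali Radix points lie farthest from 0, up to 3.63 for OSGIN1 with Astragali Radix.

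NQO1 (ENSG00000181019, GRCh38 chromosome 16, 69706996 to 69726951, minus strand) encodes NAD(P)H quinone dehydrogenase. It was at 482, 443 and 415 CPM in the vehicle libraries. With Cnidii Rhizoma it was at 532, 525 and 544 CPM at the low dose, 698, 701 and 683 at the medium dose and 1167, 1116 and 1110 at the high dose. The 3 doses did not overlap and followed the order of dose. NQO1 rose 2.20-fold from low to high (log2 change 1.13, SE 0.04, adjusted p = 2.5e-23, higher in 3 of 3 libraries), and rose from low to medium by 0.40 (adjusted p = 4.3e-08).

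With Astragali Radix NQO1 was at 514, 539 and 536 CPM at the low dose, 694, 662 and 651 at the medium dose and 791, 686 and 672 at the high dose. The low-dose libraries lay below all others, while medium and high overlapped in CPM of library totals. NQO1 rose 1.73-fold from low to high (log2 change 0.79, SE 0.04, adjusted p = 6.1e-20) and by 0.40 from low to medium (adjusted p = 1.2e-08). On library totals the high-dose change was 0.44. High against medium was not among the tests.

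The other extracts gave log2 differences of 0.14 to 0.30 in NQO1. Paeoniae Radix libraries were at 480, 498 and 475 CPM at the low dose and 555, 563 and 571 at the high dose, a rise of 0.23 (adjusted p = 0.0007). Rehmanniae Radix Preparata libraries were at 522, 528 and 518 CPM at the low dose and 631, 620 and 608 at the high dose, a rise of 0.26 (adjusted p = 0.00087). Angelicae Gigantis Radix libraries were at 510 and 503 CPM at the low dose and 600 and 632 at the high dose, a rise of 0.30 (adjusted p = 0.0077). Its call was lost without low library 2 (adjusted p = 0.14), low library 3 (0.31) or high library 3 (0.33). Cinnamomi Cortex libraries were at 464, 510 and 510 CPM at the low dose and 543, 532 and 537 at the high dose, a log2 difference of 0.14 that did not pass (adjusted p = 0.2). With no filter on low counts, the calls with Paeoniae Radix (adjusted p = 0.15), Rehmanniae Radix Preparata (0.39) and Angelicae Gigantis Radix (0.72) were lost. In all 6 extracts every high-dose library lay above every low-dose library.

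Over the 25 groups, mean NQO1 was lowest in vehicle (447 ± 33.6 CPM, SD, n = 3) and highest with Cnidii Rhizoma at the high dose (1131 ± 31.3, n = 3). Samul-tang at the high dose followed (864, 1 library), then Astragali Radix high (716 ± 65.2, n = 3), Cnidii Rhizoma medium (694) and Astragali Radix medium (669). The ranges of the last 3 overlapped in CPM of library totals, so their order is not set on that scale. After TMM scaling, the fitted NQO1 change over the low dose was 0.79 with Astragali Radix high and 0.40 with Astragali Radix medium. An antisense gene, AC092115.2, overlaps NQO1 with a mean of 5.57 CPM, and the strand setting of the counting is not given in the sources used here.

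**Figure D2:**
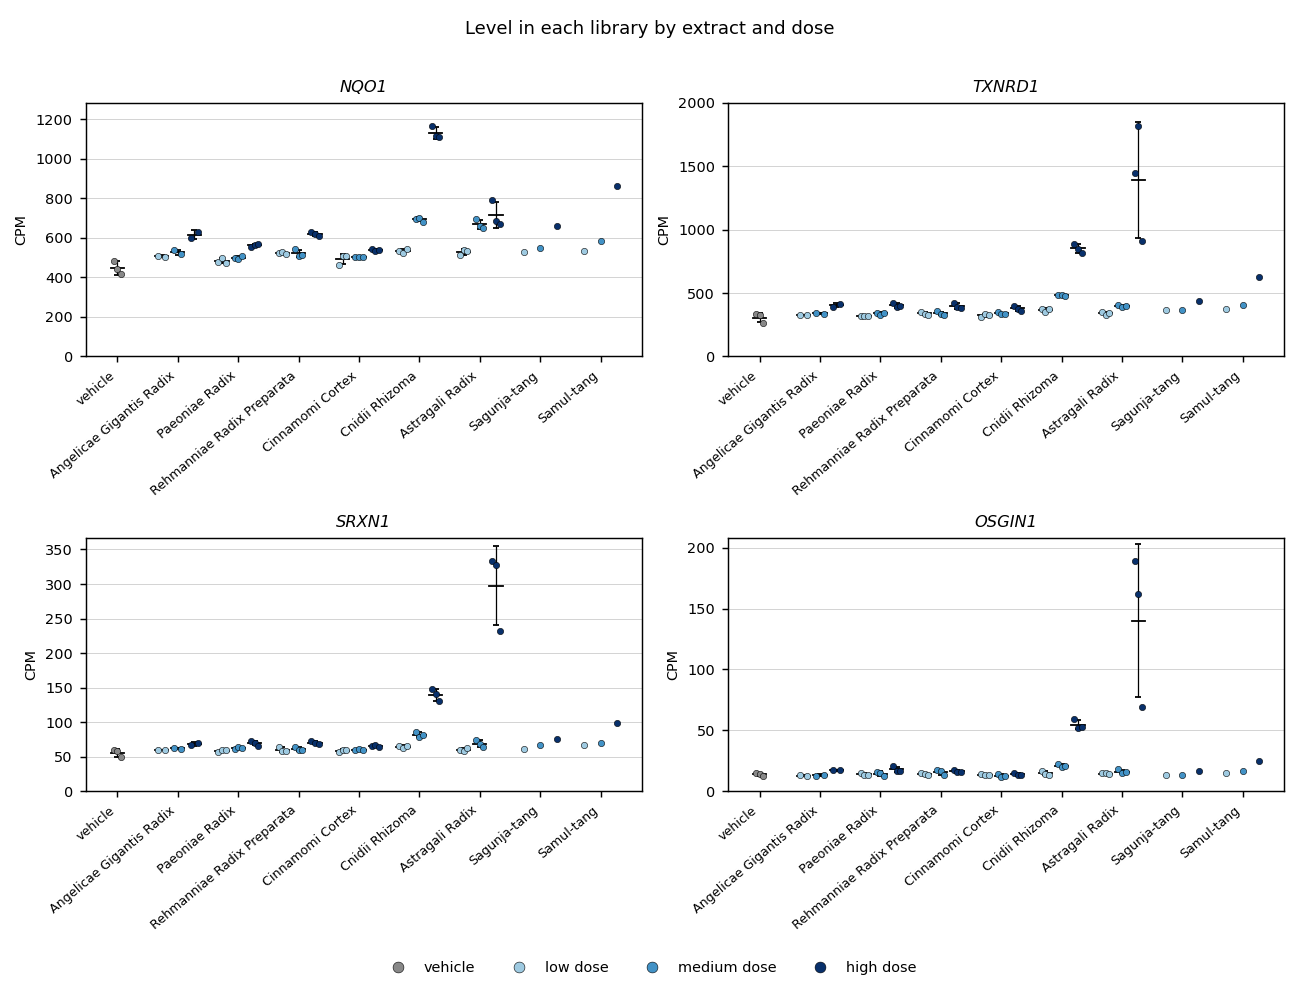
CPM of NQO1, TXNRD1, SRXN1 and OSGIN1 in each library, by extract and dose, with bars for the mean and SD of each group with replicates. Astragali Radix and Cnidii Rhizoma at the high dose stand above the rest for TXNRD1, SRXN1 and OSGIN1, and for NQO1 the Cnidii Rhizoma libraries reach 1167 CPM.

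NQO2 (ENSG00000124588, chromosome 6, 2987987 to 3028869, plus strand) encodes the related quinone reductase that uses dihydronicotinamide riboside in place of NAD(P)H. It lay between 34.1 and 77.2 CPM over all libraries, with a median of 38.4. Cnidii Rhizoma libraries were at 36.1, 38.2 and 37.6 CPM at the low dose and 52.9, 53.1 and 51.2 at the high dose, a rise of 0.54 (SE 0.11, adjusted p = 0.00028). With Astragali Radix it was at 37.5, 39.2 and 40.1 CPM at the low dose and at 77.2, 73.9 and 36.1 at the high dose. Its high-dose library 3 lay below every low-dose library in CPM of library totals, which leave out that library's TMM factor of 0.769. The fitted rise was 1.03 (adjusted p = 3.7e-11) after TMM scaling and 0.68 on library totals (adjusted p = 2e-06). With 1 library left out the TMM-scaled rise was between 0.86 and 1.27. In the other 4 extracts the log2 difference was between -0.01 and 0.03, and none passed.

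TXN (ENSG00000136810, chromosome 9, 110243811 to 110256640, minus strand) encodes cytosolic thioredoxin, the small protein that reduces disulfides. In Cnidii Rhizoma libraries it was at 368, 343 and 374 CPM at the low dose and 579, 552 and 531 at the high dose, a rise of 0.67 (SE 0.10, adjusted p = 5e-06). With Astragali Radix it was at 356, 368 and 421 CPM at the low dose, 493, 470 and 485 at the medium dose, and 1143, 652 and 1065 at the high dose. The groups did not overlap, though high-dose library 2 was well below the other two. TXN rose by 1.68 from low to high (adjusted p = 8.6e-18) and by 0.40 from low to medium (adjusted p = 0.014). The medium-dose call was lost without medium library 1 or 3 or low library 1 or 2 (adjusted p between 0.05 and 0.094).

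TXNRD1 (ENSG00000198431, chromosome 12, 104215779 to 104350305, plus strand) encodes cytosolic thioredoxin reductase, the selenoprotein that recharges thioredoxin. Vehicle libraries were at 333, 323 and 264 CPM. With Cnidii Rhizoma it was at 377, 348 and 375 CPM at the low dose, 482, 487 and 480 at the medium dose and 891, 848 and 818 at the high dose, again with no overlap between doses. It rose 2.41-fold from low to high (log2 change 1.27, SE 0.10, adjusted p = 6.5e-13). Low to medium differed by 0.42 and did not pass in this fit (adjusted p = 0.061). It passed with the replicate number as a block (0.043), in DESeq2 (0.015), with no filter (0.0015), without the Astragali Radix high-dose libraries (3.4e-08) and with the groups alone (8.4e-07).

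With Astragali Radix TXNRD1 was at 349, 330 and 343 CPM at the low dose, 405, 392 and 399 at the medium dose, and 1443, 1819 and 914 at the high dose. The lowest high-dose library was still above every library of another group. It rose 5.22-fold from low to high (log2 change 2.39, SE 0.11, adjusted p = 1e-22), and low to medium differed by 0.29 (adjusted p = 0.1). In the order of group means, Astragali Radix high (1392 ± 454 CPM, n = 3) stood above Cnidii Rhizoma high (852 ± 36.8, n = 3), Samul-tang high (627) and Cnidii Rhizoma medium (483), with vehicle lowest (307 ± 36.8, n = 3).

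TXNRD2 (ENSG00000184470, chromosome 22, 19875517 to 19941992, minus strand) encodes the mitochondrial thioredoxin reductase. With Cnidii Rhizoma it went the other way from TXNRD1 in its values: 51.5, 49.4 and 48.2 CPM at the low dose and 41.7, 41.0 and 41.0 at the high dose. The ranges did not overlap, but the difference of -0.22 did not pass (adjusted p = 0.28). With Astragali Radix it was at 46.9, 48.5 and 49.3 CPM at the low dose and 48.5, 28.1 and 58.6 at the high dose. The fitted rise of 0.26 (adjusted p = 0.034) was -0.10 on library totals (adjusted p = 0.41) and -0.04 without high-dose library 3 (adjusted p = 0.73), so these data give no direction for it.

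PRDX1 (ENSG00000117450, chromosome 1, 45511036 to 45523047, minus strand) encodes an abundant peroxidase that thioredoxin recharges. Cnidii Rhizoma gave 521, 465 and 498 CPM at the low dose and 696, 635 and 615 at the high dose, a rise of 0.44 (SE 0.09, adjusted p = 0.00081). With Astragali Radix it was at 491, 479 and 546 CPM at the low dose and 842, 887 and 1193 at the high dose, a rise of 1.31 (SE 0.10, adjusted p = 1.1e-15). Library 3 was the highest of the high-dose libraries for PRDX1, while it was the lowest for TXNRD1, SRXN1 and OSGIN1.

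PRDX2 (ENSG00000167815, chromosome 19, 12796820 to 12801859, minus strand) encodes a related cytosolic peroxidase. Over all libraries it lay between 145 and 200.04 CPM with a median of 165, the smallest ratio of highest to lowest among the 9 genes. Cnidii Rhizoma gave 165, 172 and 160 CPM at the low dose and 175, 173 and 166 at the high dose, which overlapped (0.10, adjusted p = 0.4). Astragali Radix gave 165, 167 and 166 CPM at the low dose and 182, 145 and 200.04 at the high dose. The fitted rise of 0.45 (adjusted p = 2e-08) was 0.08 on library totals (adjusted p = 0.19), and it did not pass with the groups alone (adjusted p = 0.091). With 1 library left out it was between 0.29 and 0.55.

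**Figure D3:**
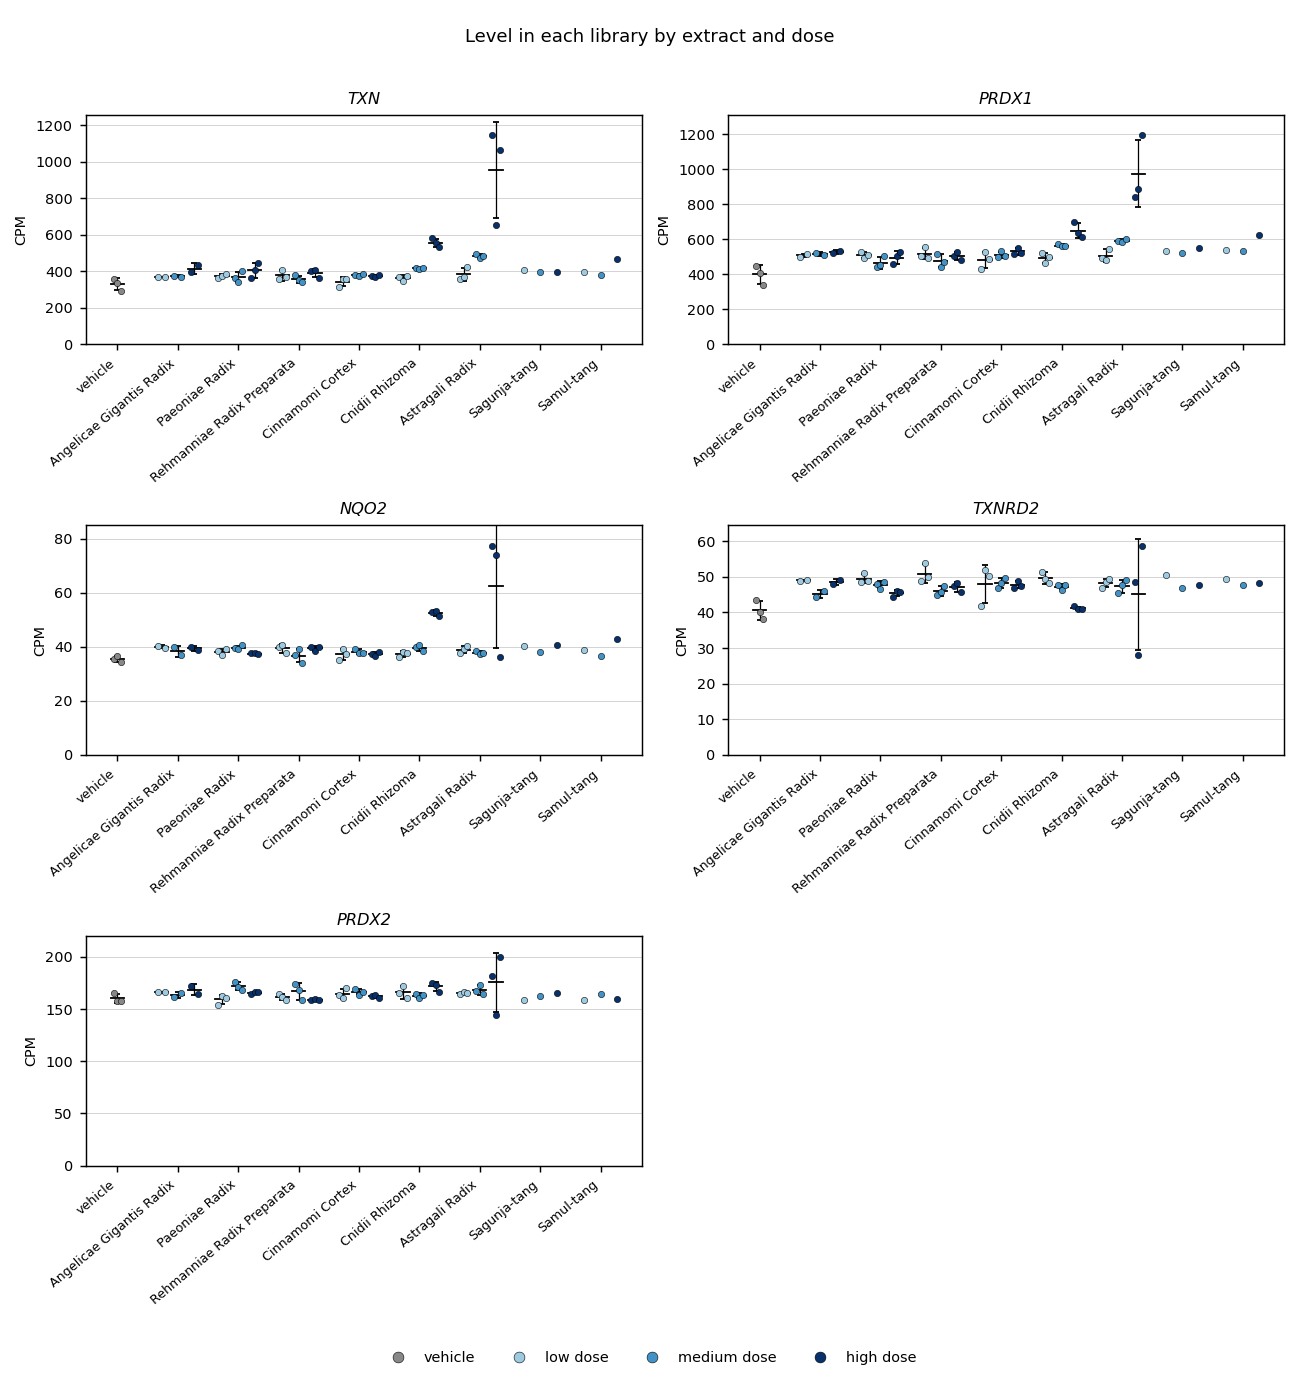
CPM of TXN, PRDX1, NQO2, TXNRD2 and PRDX2 in each library, by extract and dose, with bars for the mean and SD of each group with replicates. TXN and PRDX1 are highest with Astragali Radix at the high dose, up to 1143 and 1193 CPM, and PRDX2 stays between 145 and 200.04 CPM throughout.

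SRXN1 (ENSG00000271303, chromosome 20, 646615 to 653370, minus strand) encodes sulfiredoxin, which restores over-oxidised peroxiredoxins. Vehicle libraries were at 58.8, 57.8 and 49.3 CPM. Cnidii Rhizoma gave 64.9, 61.8 and 65.6 CPM at the low dose, 85.1, 77.7 and 81.3 at the medium dose and 147, 140.2 and 130.3 at the high dose. It rose by 1.17 from low to high (SE 0.07, adjusted p = 1.2e-16) and by 0.37 from low to medium (adjusted p = 0.0058). The medium-dose call was lost without medium library 1 (adjusted p = 0.091) or low library 2 (adjusted p = 0.1).

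With Astragali Radix SRXN1 was at 59.6, 58.5 and 61.9 CPM at the low dose, 74.3, 68.1 and 64.0 at the medium dose and 334, 327 and 232 at the high dose. It rose 6.34-fold from low to high (log2 change 2.67, SE 0.07, adjusted p = 1.1e-29) and by 0.26 from low to medium (adjusted p = 0.021). The latter was lost without medium library 1, low library 1 or low library 2 (adjusted p between 0.072 and 0.21), on library totals (0.16) and with no filter (0.17). With Paeoniae Radix it was at 57.3, 59.0 and 59.9 CPM at the low dose and 72.8, 70.2 and 66.1 at the high dose, a rise of 0.26 (adjusted p = 0.038). That call was lost on leaving out any 1 of these libraries but high library 3 (adjusted p between 0.1 and 0.24), on library totals (0.12) and with no filter (0.13).

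OSGIN1 (ENSG00000140961, chromosome 16, 83948282 to 83966332, plus strand) encodes an oxidative-stress-induced growth inhibitor. Of the 9 genes it had the largest fitted changes with Cnidii Rhizoma and with Astragali Radix. Vehicle libraries were at 14.9, 13.7 and 12.7 CPM. With Cnidii Rhizoma it was at 16.9, 14.2 and 13.4 CPM at the low dose, 22.4, 20.2 and 20.3 at the medium dose and 58.9, 52.2 and 52.8 at the high dose. It rose 3.81-fold from low to high (log2 change 1.93, SE 0.17, adjusted p = 5.6e-12).

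With Astragali Radix OSGIN1 was at 14.5, 15.0 and 13.7 CPM at the low dose, 17.8, 15.0 and 15.4 at the medium dose and 189, 162 and 69.2 at the high dose. All 3 high-dose libraries lay above every library of the other groups, and library 3 was well below the other two. It rose 12.3-fold from low to high (log2 change 3.63, SE 0.17, adjusted p = 9.5e-22).

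At the medium dose, NQO1 and SRXN1 rose with Cnidii Rhizoma and with Astragali Radix. Against the low dose, Cnidii Rhizoma at 100 µg/mL raised these 2 of the 9 genes, where 0.211% of all genes passed. Astragali Radix at 100 µg/mL raised 3, with TXN beside them, where 4.18% of all genes passed. Paeoniae Radix, Rehmanniae Radix Preparata, Cinnamomi Cortex and Angelicae Gigantis Radix at the medium dose gave no member with even an unadjusted p under 0.05 in edgeR's quasi-likelihood test and none that passed in DESeq2, and 0% of all genes passed in each. Nor did any of the 9 genes pass there in the edgeR fit that left out Astragali Radix at the high dose, where PRDX2 with Paeoniae Radix came nearest (0.10, SE 0.03, adjusted p = 0.11).

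The Astragali Radix high-dose libraries share 1 estimate of spread per gene with all other groups. Fitted without these 3 libraries, the standard error of TXNRD1 in Paeoniae Radix high against low was 0.05 in place of 0.10, and 16608 genes were tested. That TXNRD1 difference of 0.35 did not pass in the full fit (adjusted p = 0.058), but it did with the replicate number as a block (adjusted p = 0.042). NQO1 and TXNRD1 then rose from low to high dose in all 5 remaining extracts and SRXN1 in 4 of 5. The TXNRD1 changes were 0.35 with Paeoniae Radix, 0.31 with Angelicae Gigantis Radix, 0.25 with Cinnamomi Cortex and 0.24 with Rehmanniae Radix Preparata (adjusted p between 5.2e-07 and 0.0015). OSGIN1 also rose with Paeoniae Radix (0.37, adjusted p = 0.0074) and with Angelicae Gigantis Radix (0.46, adjusted p = 0.035).

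In that fit the number of the 9 genes called, and the share of all genes called, were as follows. Paeoniae Radix high against low gave 4 genes with 9.51% of all genes, and Rehmanniae Radix Preparata gave 3 with 1.43%. Cinnamomi Cortex gave 3 with 6.08% and Angelicae Gigantis Radix gave 3 with 1.2%. Cnidii Rhizoma gave 9 with 23.7%: TXNRD2 fell by 0.22 (adjusted p = 0.0002) and PRDX2 rose by 0.10 (adjusted p = 0.012). At the medium dose Cnidii Rhizoma gave 5 with 3.11%, and Astragali Radix gave 5 with 16.5%.

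Against vehicle, NQO1 rose with the high dose of all 6 extracts. Its log2 change was 1.33 with Cnidii Rhizoma, 0.98 with Astragali Radix, 0.43 with Rehmanniae Radix Preparata, 0.42 with Angelicae Gigantis Radix, 0.30 with Paeoniae Radix and 0.23 with Cinnamomi Cortex (adjusted p between 6.5e-26 and 0.00062). The last lost its call with no filter on low counts (0.24, adjusted p = 0.094). Cnidii Rhizoma raised 7 of the 9 genes (19% of all genes passed) and Astragali Radix all 9 (70.7%). Of these, TXNRD2 with Astragali Radix (0.45) was not called on library totals (0.15, adjusted p = 0.23) or without high library 3 (0.16, adjusted p = 0.11), and with the groups alone neither TXNRD2 (adjusted p = 0.23) nor PRDX2 (0.1) passed. Paeoniae Radix raised 3, NQO1, TXNRD1 and SRXN1 (7.09%), Rehmanniae Radix Preparata raised NQO1 and SRXN1 (3.79%), Cinnamomi Cortex raised NQO1 and PRDX1 (5.87%), and Angelicae Gigantis Radix raised NQO1 (2.43%).

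Several of the 9 genes were already higher at the low dose of the extracts than in vehicle in their values. NQO1 was at 464 to 544 CPM in the 17 low-dose plant libraries, and 14 of them lay above the highest vehicle library. The same held for 16 of 17 libraries for PRDX1 and for TXNRD2, 15 for NQO2 and 12 for SRXN1. It held for 11 libraries for TXN, 7 for TXNRD1, 7 for PRDX2 and 4 for OSGIN1. How many of all genes lay this way was not counted, so these counts cannot be read as particular to the 9 genes. Low dose against vehicle was not among the tests. The titles of all 60 libraries name the same batch, D. The sample codes of vehicle and extract libraries still fall into different sets. Code set and treatment can therefore not be told apart in any comparison with vehicle. The extracts also fall into sets (Paeoniae and Angelicae, Cnidii and Rehmanniae, Astragali and Cinnamomi, and the formulas), so levels set between extracts of different sets share this limit. Vehicle library 3 was the lowest vehicle library for NQO1, TXN, TXNRD1, SRXN1, PRDX1 and OSGIN1. Without it the calls of TXNRD1 (0.28, adjusted p = 0.2) and SRXN1 (0.23, adjusted p = 0.097) with Paeoniae Radix, SRXN1 with Rehmanniae Radix Preparata (0.23, adjusted p = 0.12) and PRDX1 with Cinnamomi Cortex (0.28, adjusted p = 0.17) were lost. TXNRD1 with Paeoniae Radix also lost its call without high library 1 (adjusted p = 0.087) or 3 (0.053), and PRDX1 with Cinnamomi Cortex without high library 2 (0.07). Without vehicle library 1, PRDX1 also passed with Paeoniae Radix (0.36), Rehmanniae Radix Preparata (0.38) and Angelicae Gigantis Radix (0.44), and TXNRD1 with Rehmanniae Radix Preparata (0.38).

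Astragali Radix and Cnidii Rhizoma gave the largest changes at the high dose but in a different order across the 9 genes. The difference between their high-against-low changes passed for all 9 genes, where 57.9% of all genes passed. NQO1 rose less with Astragali Radix (difference -0.34, SE 0.06, adjusted p = 4.8e-06). For the other 8 the log2 change with Astragali Radix was the more positive: it was -0.22 with Cnidii Rhizoma and 0.26 with Astragali Radix for TXNRD2, and a larger rise for the rest. The differences were largest for OSGIN1 (1.70, adjusted p = 4.5e-08), SRXN1 (1.49, adjusted p = 1.6e-16), TXNRD1 (1.12, adjusted p = 9.3e-09) and TXN (1.01, adjusted p = 1.2e-07). On library totals the difference was -0.65 for NQO1, and those for NQO2, TXNRD2 and PRDX2 did not pass. The same 3 genes did not pass with the 4 groups fitted alone (adjusted p between 0.12 and 0.21), and PRDX2 did not pass with no filter (0.17). The NQO2 difference of 0.48 was 0.32 without Astragali Radix high library 2 (adjusted p = 0.052), and the TXNRD2 difference of 0.48 was 0.19 without high library 3 (adjusted p = 0.16). With the 4 groups fitted alone, the NQO1 difference was -0.33 (adjusted p = 0.042), and it missed the threshold when the replicate number was a block in that fit (adjusted p = 0.073).

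With Cnidii Rhizoma the low, medium and high libraries of NQO1, NQO2, TXN, TXNRD1, PRDX1, SRXN1 and OSGIN1 lay in the order of dose without overlap. Those of TXNRD2 lay in the reverse order without overlap, and those of PRDX2 overlapped. How many of all genes show such an order was not counted. With Astragali Radix NQO1 at the medium dose was within the range of Cnidii Rhizoma at the same dose or below it (651 to 694 CPM against 683 to 701), while OSGIN1 at the medium dose was lower (15.0 to 17.8 CPM against 20.2 to 22.4). Tests of these medium-dose differences were not made.

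**Figure D4:**
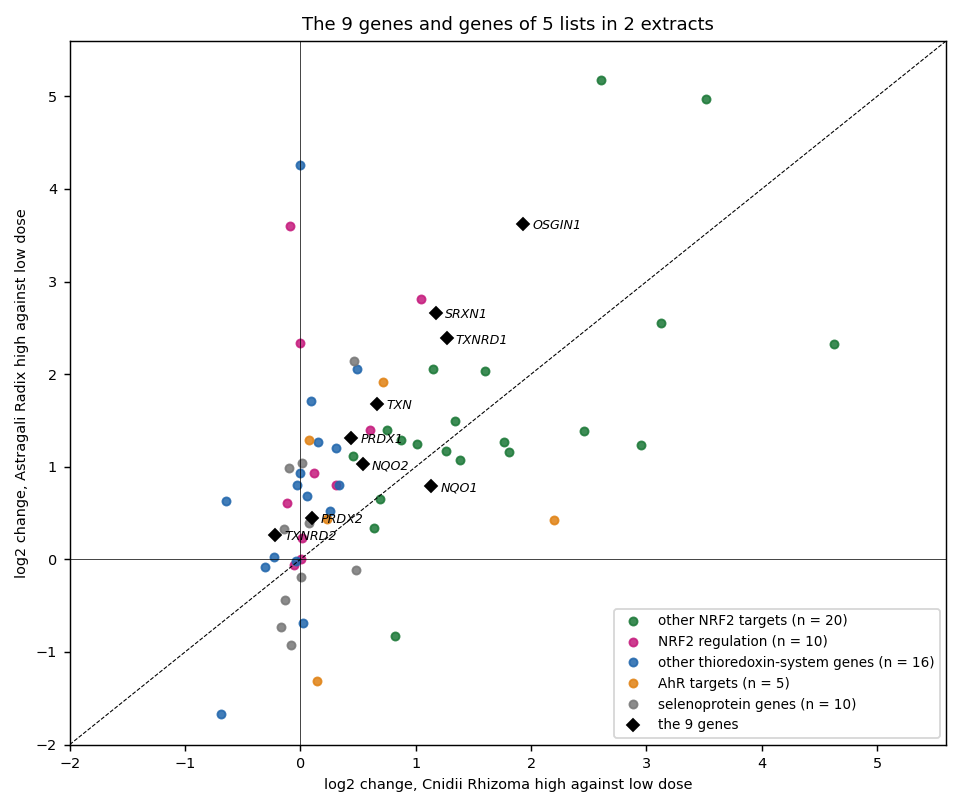
Log2 change from low to high dose with Cnidii Rhizoma (horizontal) and with Astragali Radix (vertical) for the 9 genes (diamonds) and the genes of 5 other lists, with a dashed line of equal change. NQO1 lies below the line (1.13 against 0.79), and OSGIN1, SRXN1 and TXNRD1 lie above it.

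The other genes of the pathway were read as 5 lists. Of 20 other NRF2 targets, 20 rose with Cnidii Rhizoma from low to high dose (median 1.36) and 19 rose with Astragali Radix (median 1.28), against a median of 0 over all genes in both. Of all genes, 10.2% passed with Cnidii Rhizoma and 70.2% with Astragali Radix, and the list counts below stand beside these shares. With Cnidii Rhizoma the largest were AKR1C2 (4.63), AKR1C1 (3.52) and ABCC2 (3.13), aldo-keto reductases and an efflux pump for conjugates. With Astragali Radix the largest were HMOX1, the haem-degrading oxygenase, at 5.18 and AKR1C1 at 4.97, and the transporter ABCC3 fell by 0.83. AKR1C1, AKR1C2 and AKR1C3 are related in sequence, so reads may be split among them uncertainly. Between these extracts, the difference passed for 15 of the 20 targets, 7 with the more positive change under Astragali Radix and 8 under Cnidii Rhizoma, where 57.9% of all genes passed.

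In the full fit the other extracts raised 1 to 4 of these targets. With Astragali Radix at the high dose left out of the fit, the genes called over all 5 lists went from 6 to 26 with Paeoniae Radix, 3 to 22 with Rehmanniae Radix Preparata, 1 to 7 with Cinnamomi Cortex and 4 to 16 with Angelicae Gigantis Radix. The share of all genes called went up as well, in the same order from 1.77% to 9.51%, 0.117% to 1.43%, 0.281% to 6.08% and 0.0644% to 1.2%. Paeoniae Radix raised 4 of 20, with the cystine importer SLC7A11 at 0.64, AKR1B10 at 0.62 and the glutathione synthesis subunit GCLM at 0.40. Rehmanniae Radix Preparata raised 3 (AKR1C2, AKR1B10 and HMOX1 by 0.50 to 0.57), and 6 genes of the 5 lists passed with the replicate number as a block against 3 without it. Angelicae Gigantis Radix raised 3 (AKR1B10 0.87, AKR1C2 0.85 and AKR1C3 0.59), and Cinnamomi Cortex raised AKR1B10 (0.39). Leaving out any 1 library brought the calls over all 5 lists from 4 to 1 with Angelicae Gigantis Radix, from 6 to between 2 and 4 with Paeoniae Radix and from 3 to 1 or 2 with Rehmanniae Radix Preparata. At the medium dose against the low dose, 6 of 20 rose with Cnidii Rhizoma, where 0.211% of all genes passed. With Astragali Radix 13 rose and 1 fell, where 4.18% of all genes passed.

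Of 10 genes that regulate NRF2, Cnidii Rhizoma raised 3: the autophagy receptor SQSTM1 (1.05), the small MAF gene MAFG (0.60) and KEAP1 (0.31). Astragali Radix raised 8 of the 10, near the 70.2% of all genes that passed, with MAFF at 3.60, SQSTM1 at 2.81 and MAFK at 2.33. NFE2L2, which encodes NRF2 itself, did not pass in either (-0.06, adjusted p = 0.9, and -0.07, adjusted p = 0.63). Of 16 other thioredoxin-system genes, Cnidii Rhizoma raised 2 and lowered 3 (median 0.01). The methionine sulfoxide reductase MSRB1 rose by 0.49, MSRA fell by 0.64 and the sestrin SESN1 fell by 0.69. Astragali Radix raised 11 and lowered 2 (median 0.74), again with 70.2% of all genes passing. SESN2 rose by 4.26, MSRB1 by 2.06 and the thioredoxin inhibitor TXNIP by 1.71, while TXNRD3 fell by 0.69 and SESN1 by 1.67.

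Of 10 genes for selenoproteins or for the machinery that makes them, Cnidii Rhizoma raised 1 (SELENOS, 0.46). Astragali Radix raised 5 and lowered 3 (median 0.10). Both counts are near the shares of all genes that passed, 10.2% and 70.2%. The list mixes selenoproteins with the machinery, so it does not show whether TXNRD1 moved with its class. Of 5 tested targets of the aryl hydrocarbon receptor, another regulator of NQO1, Cnidii Rhizoma raised ALDH3A1, from 30.0 ± 0.766 to 133 ± 0.391 CPM (n = 3 each). Astragali Radix raised 4 and lowered 1: TIPARP rose by 1.29 and CYP1A1 by 1.92 at about 1 CPM, while CYP1B1 fell by 1.31.

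The members that followed each other most closely over the 25 groups were NQO1, TXNRD1 and SRXN1. Spearman's rho between group means was 0.97 for NQO1 and TXNRD1, 0.97 for TXNRD1 and SRXN1 and 0.95 for NQO1 and SRXN1. With NQO1, rho was 0.85 for TXN, 0.79 for OSGIN1, 0.77 for PRDX1, 0.45 for NQO2, 0.16 for PRDX2 and -0.29 for TXNRD2. All points share libraries and their depth, so these are descriptions. Among 10633 genes with a mean of at least 5 CPM, the 5 most like NQO1 were UGDH (0.952), AKR1B10 (0.942), FBXO30 (0.936), KCNAB2 (0.935) and RAB5IF (0.935). The 5 most like TXNRD1 were NAMPT (0.962), ANXA1 (0.955), FBXO30 (0.944), GSR (0.939) and IFRD2 (0.938). Without the Astragali Radix high group, 3 of the 5 stayed for NQO1 and 4 of the 5 for TXNRD1, and for NQO1 ALDH3A2 (0.964) and ALDH3A1 (0.957) came first.

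The formulas had 1 library a dose, so intervals cover counting error only (95%, exact Poisson). Samul-tang is traditionally made from the plants Rehmanniae, Angelicae, Cnidii and Paeoniae. With Samul-tang, NQO1 was at 533 CPM at the low dose, 584 at the medium dose and 864 (852.5 to 874.8) at the high dose. TXNRD1 was at 372, 405 and 627 CPM (617.6 to 636.6 at the high dose). SRXN1 was at 67.4, 69.8 and 98.8 CPM and OSGIN1 at 15.1, 16.6 and 24.4 CPM. Each of these 4 genes was highest at 500 µg/mL, and each lay below its level with Cnidii Rhizoma at that dose.

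With Sagunja-tang these 4 genes were also highest at 500 µg/mL, at lower levels than in the Samul-tang library of that dose. NQO1 was at 531, 551 and 659 CPM (649.4 to 668.1 at the high dose), TXNRD1 at 367.5, 368 and 438 CPM, SRXN1 at 61.2, 67.3 and 75.5 CPM and OSGIN1 at 13.4, 13.5 and 16.7 CPM. TXN was at 407, 393 and 395 CPM with Sagunja-tang and at 394, 376 and 464 CPM with Samul-tang. NQO2, TXNRD2 and PRDX2 lay within 36.5 to 42.9, 47.0 to 50.5 and 158 to 165 CPM over both formulas and all doses.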

How the data were processed

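RNA of HT29 cells was sequenced as paired reads from a strand-specific kit, per the labels' protocols. Per the submitters' processing notes the tools include FastQC 0.11.9, Trim Galore 0.6.5, STAR 2.7.3a and RSEM 1.3.3 on hg38; the annotation version and strand setting were not given in the sources used here. The authors deposited RSEM expected counts per gene, and 8.78% of the values used were not whole. They were rounded, which moved no library total by more than 0.000184%. Of 273 value columns, 60 matched a labelled sample and 213 were not used. Names came from an identifier table for 56558 entries and from GENCODE v29 for 497. Entries with no name held 0.0504% of counts.

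Counts were filtered with filterByExpr by group, scaled by TMM and tested with edgeR 4.0.16 (R 4.3.3) by the quasi-likelihood F test in 1 model of 54 libraries in 19 groups, with Benjamini-Hochberg adjustment in each of 19 comparisons and a threshold of 0.05. The scripts were tested on simulated data. The formulas entered no model. Alternatives were library totals, no filter, a replicate block, the groups compared alone, DESeq2 1.42.0, leaving out the Astragali Radix high-dose libraries, and each library left out in turn. Fits of the groups alone with a block were added after seeing the data.

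The 9 genes and the lists were chosen with earlier results of these data known. Named list genes are up to 3 a list and comparison with the largest change past the threshold; ABCC3, TXNRD3, SESN1 with Astragali Radix, and NFE2L2 were named after their values were seen. Shared replicate numbers were checked in 18 comparisons by the correlation of deviations from group means (-0.25 to 0.39). Every pair was above 0.1 in 4 of the 15 with 3 pairs: high against low with Paeoniae Radix, Rehmanniae Radix Preparata and Cinnamomi Cortex, and medium against low with Cinnamomi Cortex.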

Additional observations from a re-analysis of the deposited data

Results flagged for a closer look

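The change from low to high dose differed between Astragali Radix and Cnidii Rhizoma for all 9 genes in edgeR's quasi-likelihood test of the difference itself, as it did for 57.9% of all genes. On the log2 scale, Astragali Radix minus Cnidii Rhizoma was -0.34 for NQO1, 0.48 for NQO2, 1.01 for TXN, 1.12 for TXNRD1, 0.48 for TXNRD2, 1.49 for SRXN1, 0.87 for PRDX1, 0.35 for PRDX2 and 1.70 for OSGIN1. NQO1 was the one of the 9 genes with a difference below 0, also on library totals (-0.65). The TXNRD2 difference lies between a value of -0.22 with Cnidii Rhizoma that did not pass and one of 0.26 with Astragali Radix. The difference passed for 6 of the 9 genes on library totals and for 6 with the 4 groups fitted alone, in both cases without NQO2, TXNRD2 and PRDX2. It passed for 5 with the groups alone and a replicate block, where NQO1 did not pass either (adjusted p = 0.073). The share of all genes that passed is not given for these alternatives.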

How the results depend on the processing

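A value that did not pass before or after an alternative is counted as unchanged whatever its sign. Of 1170 single-gene values from other fits, 1006 were unchanged, 30 lost their call, 133 gained one, 1 turned its direction and 9 uncalled values changed sign. Of 1035 values with 1 library left out, 1000 were unchanged, 30 lost their call, 4 gained one, 1 turned its direction and 34 uncalled values changed sign. The value that turned was TXNRD2 in Astragali Radix high against low: 0.26, against -0.10 on library totals and -0.04 without high-dose library 3 (range with 1 library left out -0.04 to 0.5). Of 171 group levels, 45 moved by more than 1 SD when set on TMM-scaled totals. The causes of the changes below were not tested.

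Counts of the 9 genes called are given below where they moved by over 1.5 times. High against low gave 2 with Paeoniae Radix, 7 with Cnidii Rhizoma, 1 with Rehmanniae Radix Preparata, 9 with Astragali Radix, 0 with Cinnamomi Cortex and 1 with Angelicae Gigantis Radix. On library totals Paeoniae Radix gave 1. With no filter Rehmanniae Radix Preparata and Angelicae Gigantis Radix gave 0 each. DESeq2 gave Cinnamomi Cortex 1. Without the Astragali Radix high-dose libraries Paeoniae Radix gave 4 and Rehmanniae Radix Preparata, Cinnamomi Cortex and Angelicae Gigantis Radix 3 each. With the groups alone they gave 4, 3, 2 and 3. Medium against low gave 2 with Cnidii Rhizoma, and 4 with no filter, 5 without the Astragali Radix high-dose libraries and 6 with the groups alone. With Astragali Radix it gave 3, and 5 in each of the last 2 fits. The share of all genes called also rose without the Astragali Radix high-dose libraries, as given above. No such share is given for the other alternatives. These changes in count can therefore not be read as particular to the 9 genes.

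Against vehicle the counts were 3, 7, 2, 9, 2 and 1 in the same order. For Rehmanniae Radix Preparata and Angelicae Gigantis Radix, library totals gave 4 and 4, DESeq2 gave 4 and 4, and no filter gave 4 and 3. No filter gave Paeoniae Radix 6. Without the Astragali Radix high-dose libraries Paeoniae Radix gave 7, Rehmanniae Radix Preparata 7, Cinnamomi Cortex 5 and Angelicae Gigantis Radix 6. With the groups alone they gave 6, 6, 5 and 6. The share of all genes called against vehicle is given for the full fit only. These changes in count can therefore not be read as particular to the 9 genes.

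The genes of the 5 lists called in high against low numbered 6 with Paeoniae Radix, 3 with Rehmanniae Radix Preparata, 1 with Cinnamomi Cortex and 4 with Angelicae Gigantis Radix. Without the Astragali Radix high-dose libraries they numbered 26, 22, 7 and 16, and with the groups alone 19, 21, 5 and 17. Of all genes, 9.51%, 1.43%, 6.08% and 1.2% were called in the first of these fits. No such share is given for the other alternatives. DESeq2 gave 10 with Paeoniae Radix, 10 with Rehmanniae Radix Preparata and 2 with Cinnamomi Cortex. With no filter Cinnamomi Cortex gave 2 and Rehmanniae Radix Preparata 7. Of the 5 genes most like NQO1, 3 stayed without the Astragali Radix high-dose group.

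With the replicate number as a block in the full model, Angelicae Gigantis Radix against vehicle gave 2 and the lists of Rehmanniae Radix Preparata 6. Beside these, single-gene calls that the block changed were TXNRD1 with Paeoniae Radix high against low (adjusted p = 0.042), Cnidii Rhizoma medium against low (0.043) and Rehmanniae Radix Preparata against vehicle (0.042). With the block and the groups compared alone, high against low gave 4 with Paeoniae Radix, 4 with Rehmanniae Radix Preparata, 5 with Cinnamomi Cortex and 5 with Angelicae Gigantis Radix, and their lists gave 27, 27, 14 and 21. Medium against low gave 6 with Cnidii Rhizoma and 6 with Astragali Radix. Against vehicle that paired fit gave 6 with Rehmanniae Radix Preparata, 6 with Cinnamomi Cortex and 7 with Angelicae Gigantis Radix. The difference between Astragali Radix and Cnidii Rhizoma passed for 5 genes in place of 9. The share of all genes called is not given for the fits with a block. Their counts can therefore not be read as particular to the genes counted.

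With 1 library left out, the counts in high against low ranged over 1 to 2 with Paeoniae Radix, 7 to 7 with Cnidii Rhizoma, 1 to 1 with Rehmanniae Radix Preparata, 8 to 9 with Astragali Radix, 0 to 0 with Cinnamomi Cortex and 0 to 1 with Angelicae Gigantis Radix. Against vehicle they ranged over 1 to 4, 7 to 7, 1 to 4, 8 to 9, 1 to 2 and 1 to 2 in the same order. Medium against low ranged over 1 to 2 with Cnidii Rhizoma and 1 to 3 with Astragali Radix, and the difference between these extracts over 8 to 9. The lists ranged over 2 to 4, 28 to 29, 1 to 2, 52 to 54, 1 to 1 and 1 to 1. The share of all genes called is not given for the fits with 1 library left out.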
